A study of Mus musculus with 16 samples.

Results

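The nuclear-encoded respiratory chain genes are the genes whose protein products, together with a small set made inside the mitochondrion, form complexes I to IV and the ATP synthase. They were chosen by symbol: rows beginning with Nduf, Sdha to Sdhd, Uqcr, Cox4 to Cox8 or Atp5, without pseudogene, antisense or Rik names. The symbols matched 119 rows, 15 of these were excluded by name, and 93 of the remaining 104 reached 5 counts in 8 or more of the 16 libraries. These 93 genes are described here, of 18227 genes that passed the same filter and 57010 in the table. By name they are 38 complex I subunits (among them Ndufb4c, which is annotated as a processed pseudogene and was kept because the rule goes by name), 4 complex II subunits, 8 complex III subunits, 14 complex IV subunits, 17 genes of the ATP synthase and 12 genes named as assembly factors of complexes I and II.

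The libraries were made from olfactory bulb cells that were bound to CD11b beads to enrich microglia, the resident macrophages of the brain. APP-NL-G-F mice, called knock-in below, have familial Alzheimer's disease mutations built into their own App gene, and they were compared with WT mice. All mice were 2 months old and on a C57BL/6J background, and WT animals were C57BL/6J. The control mice are described as purchased from a supplier, and they are not described as littermates of the knock-in mice. Genotype may therefore go together with the source of the mice. The part of this source in the differences between the genotypes was not tested. Each of the 4 groups (WT female, APP-NL-G-F female, WT male, APP-NL-G-F male) had 4 libraries of ribosomal RNA-depleted total RNA, with 9052932 to 18117286 counts per library. Sex is read from the letters f and m in the sample titles. The labels do not say that each library came from a separate mouse, so the p-values measure the spread between these libraries.

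The respiratory chain passes electrons from NADH (complex I) and succinate (complex II) through complex III to complex IV, which reduces oxygen, and the ATP synthase uses the proton gradient that complexes I, III and IV build. Most subunits are encoded in the nucleus and imported, while the most hydrophobic ones, apart from complex II, are encoded by mitochondrial DNA. In microglia, oxidative phosphorylation is known to fuel the surveying state, and a shift towards glycolysis is often described on activation.

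The labelled cell type was checked against marker genes. All 15 microglia markers were measured, with a summed level of 25254 to 30352 CPM (a gene's count relative to the TMM-scaled library total) in every library, led by Csf1r, the receptor that microglia need to survive, at a mean of 5665 CPM. Transcripts of other cell types were present too. The 20 neuron markers summed to 857 to 1903 CPM per library, led by Meg3 at 442 CPM, the 10 astrocyte markers to 508 to 1218 CPM, led by Slc1a2 at 294 CPM, and the 10 oligodendrocyte markers to 240.2 to 446 CPM, led by Mbp at 113 CPM. The endothelial sum was 69.1 to 228 CPM, led by Pecam1 at 32.6 CPM. The 8 markers of border macrophages, which also carry CD11b, summed to 439.9 to 904 CPM, led by Mrc1 at 344 CPM, and those of monocytes, which carry it too, to 39.03 to 97.1 CPM, led by Fn1 at 40.4 CPM. None of the 6 red blood cell markers passed the filter. Neurons, astrocytes and endothelial cells also express respiratory chain genes, and in bulk samples fewer cells of a type and less RNA per cell cannot be told apart.

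Respiratory chain genes were expressed at moderate levels in every library. The 93 genes together took 0.317% to 0.364% of the counts, and 91 of them had at least 5 counts in all 16 libraries. Levels between genes are compared as CPM per kilobase of the canonical transcript, which could be done for 91 genes. The median level was 25.9 CPM per kilobase over 79 subunits and 4.1 CPM per kilobase over the 12 assembly factors. By complex, the median was 20.1 for complex I subunits, 17.1 for complex II, 28.1 for complex III, 46.2 for complex IV and 31.8 CPM per kilobase for the ATP synthase. Within each complex the levels spread far more than the complexes differ, from 0.886 to 82.8 CPM per kilobase among complex I subunits and from 0.631 (Cox6b2) to 194 (Cox6c) among complex IV subunits. All levels per kilobase depend on the length taken. Subunits stayed above assembly factors, with medians of 12.8 against 2.67 by the longest transcript and 8.93 against 1.64 CPM per kilobase by the union of exons, but complex IV did not stay highest: its median was 17.3 by the longest transcript and 9.84 by the union, against 18.3 and 12.3 for complex III and 24.7 and 10.03 for the ATP synthase. Cox6c was at 26.5 CPM per kilobase by the longest transcript and 10.4 by the union. The levels below use the canonical transcript, and no order between the complexes is read from them.

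**Figure D1:**
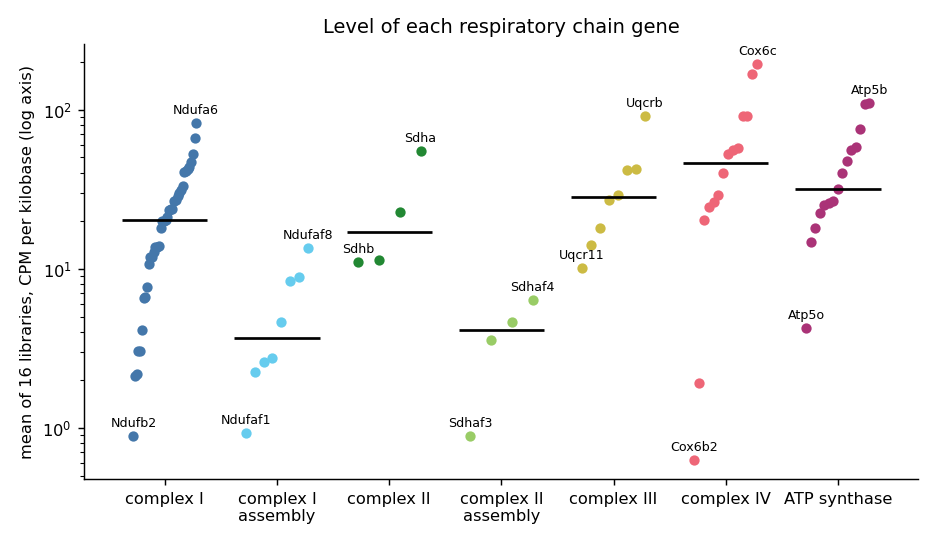
Mean level of each gene over 16 libraries in CPM per kilobase of canonical transcript on a log axis, grouped by complex, with 1 point per gene, a black line at the median of each group, and the highest and lowest gene of each group named. Subunit medians lie between 17.1 and 46.2 CPM per kilobase, and the medians of the assembly factors of complexes I and II at 3.68 and 4.1.

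The core of complex I combines mitochondrially encoded subunits with 7 that are encoded in the nucleus. Ndufs3 was the lowest of the nuclear ones at 13.6 ± 1.13 CPM per kilobase (SD, n = 16). Ndufv1, which binds the flavin that accepts electrons from NADH, stood at 21.2 ± 1.46 CPM per kilobase. Ndufs1, the large iron-sulphur subunit, at 13.9 ± 0.954 CPM per kilobase did not differ from Ndufs3 beyond their spread with this length, but stood at 11.2 against 4.11 by the longest transcript. Sdha, the flavoprotein that oxidises succinate, was the highest complex II subunit at 55 ± 2.59 CPM per kilobase, while its iron-sulphur partner Sdhb at 11 ± 0.514 and the membrane anchor Sdhc at 11.4 ± 0.679 overlapped within their SD, but stood at 5.33 against 9.1 by the union. Among complex III subunits, Uqcrb, a small subunit near the quinone site, was highest at 90.8 ± 12.2 CPM per kilobase, also with the other lengths. Uqcr11 was lowest at 10.1 ± 1.01 CPM per kilobase, but Uqcr10 was lowest by the longest transcript (5.87) and by the union (5.34). The Rieske iron-sulphur protein Uqcrfs1 stood at 14.1 ± 1.33 CPM per kilobase, and the core proteins Uqcrc1 and Uqcrc2 at 41.5 ± 2.63 and 18.1 ± 1.11. Atp5b, the beta subunit of the ATP synthase that holds its catalytic sites, and Atp5a1, the alpha subunit beside it, were the highest genes of that complex at 110 ± 7.56 and 109 ± 6.35 CPM per kilobase. Their order turned with the length, with 98.4 against 72.1 by the longest transcript and 45.8 against 60.8 by the union.

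Several complex IV subunits exist as tissue isoforms, and in each pair the general isoform was the one measured at a substantial level. Cox4i1 stood at 167 ± 9.53 CPM per kilobase, and its counterpart Cox4i2, the isoform known from lung and low oxygen, reached at most 4 counts in a library and did not pass the filter. Cox6a1 stood at 57.4 ± 4.91 CPM per kilobase against 1.91 ± 0.52 for Cox6a2, the isoform of heart and skeletal muscle. Cox6b1 stood at 55.5 ± 4.62 against 0.631 ± 0.307 for Cox6b2, the isoform of testis, whose level ranged from 0.0748 to 0.844 CPM between libraries. Cox7a2 was at 20.1 ± 2.13 and Cox7a2l at 91.7 ± 5.99 CPM per kilobase (3.12 and 27.2 by the longest transcript), while the muscle isoform Cox7a1 reached at most 4 counts. Cox8a stood at 91.6 ± 8.64 CPM per kilobase, and Cox8b and Cox8c had no count in any library, where a count of 0 allows up to 3 counts, or 0.169 to 0.347 CPM depending on the library. Ndufa4, a complex IV subunit in spite of its name, was at 24.3 ± 2.39 CPM per kilobase (2.51 by the longest transcript), and its relative Ndufa4l2, known from low oxygen, did not pass the filter. The 3 genes that encode the same c subunit of the ATP synthase rotor, Atp5g1, Atp5g2 and Atp5g3, stood at 17.9 ± 2.13, 14.7 ± 2.09 and 26.8 ± 1.56 CPM per kilobase. By the longest transcript they stood at 2.31, 2.78 and 26.3 CPM per kilobase, so that the gap to Atp5g3 and the order of the other two depend on the length. In addition, 60.2% and 87.5% of the 75-base windows of Atp5g1 and Atp5g2 transcripts also occur in other annotated genes.

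Shared sequence limits what some of these levels mean, since many respiratory chain genes have processed copies elsewhere in the genome. Of the 91 genes matched to the annotation, 59 had no 75-base window in common with another gene and 13 had more than 20%. Ndufb8, an accessory subunit of complex I that was singled out after its values were seen, was counted at only 0.609 to 2.02 CPM and shares 64.8% of its windows, mainly with the overlapping gene Gm20538 on the same strand. Ndufb4c is annotated as a transcribed processed pseudogene with all (100%) of its windows shared and was at 0.336 to 2.3 CPM. The values of these genes are uncertain. Among the 13 protein-coding genes of mitochondrial DNA, 5 (mt-Co2, mt-Co3, mt-Atp6, mt-Atp8 and mt-Nd4l) had at most 12 counts in a library and were not tested. The other 8, led by mt-Co1 at a mean of 4429 CPM, summed to 13075 to 21465 CPM per library.

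The libraries were sequenced to compare olfactory bulb microglia of knock-in and WT mice at this age. For the respiratory chain genes the levels in both genotypes lay close together. The summed level of the 93 genes was 3439 ± 188 CPM in WT and 3380 ± 149 CPM in knock-in libraries (SD, n = 8 each), with ranges of 3202 to 3713 and 3191 to 3602 CPM that overlapped almost entirely. In the quasi-likelihood test of edgeR with sex as a covariate, 0 of the 93 genes were called at a Benjamini-Hochberg FDR below 0.1 with an absolute log2 fold change above 0.5, while 8.64% of all 18227 genes were. DESeq2 and limma voom also called 0 of the 93. At an FDR below 0.1 with no threshold on the fold change, 0 genes were higher (6.95% of all genes) and 1 was lower (7.82% of all genes), the complex I assembly factor Ndufaf3. An unadjusted p below 0.05 was found for 5 of the 93 genes, which is 5.38% against 24.1% of all genes. No gene had WT and APP-NL-G-F ranges of log2 CPM that did not overlap, which 1.29% of all genes had.

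**Figure D2:**
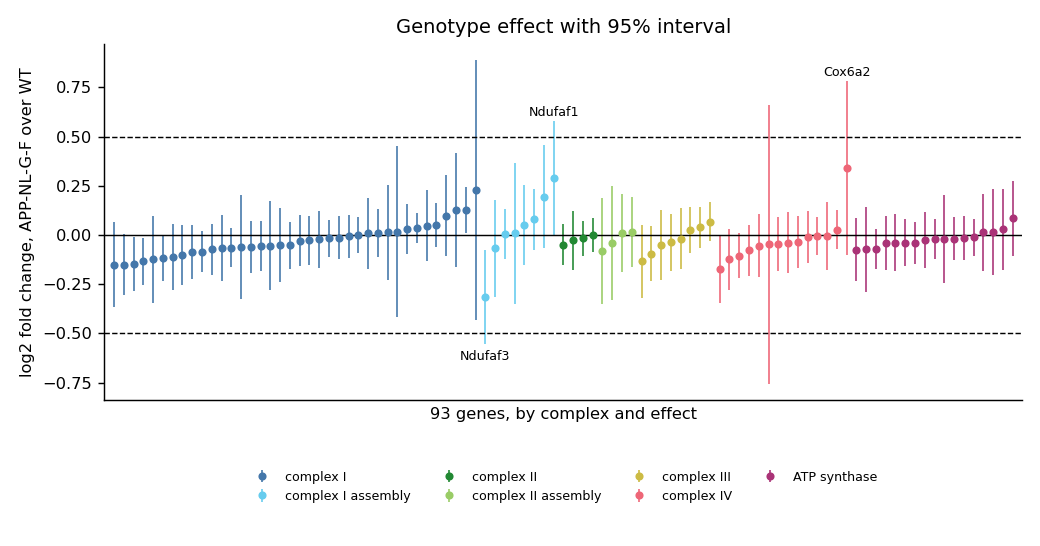
Log2 fold change of APP-NL-G-F over WT for each of the 93 genes with its 95% interval (edgeR, 8 libraries per genotype), coloured by complex and ordered by effect within it, with dashed lines at -0.5 and 0.5. The effects lie between -0.32 and 0.34, and 88 of the 93 intervals lie within the dashed lines.

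The precision of these genes was high enough to bound the genotype effect. The median SD of log2 CPM within a group was 0.14 over the 93 genes and 0.24 over all tested genes, and the 95% interval of the log2 fold change lay within -0.5 and 0.5 for 88 of the 93, which is 94.6% against 55.7% of all genes. For 64 genes the interval lay within -0.25 and 0.25. The median log2 fold change was -0.027, with 29 of the 93 above 0, against a median of -0.0014 and 49.6% above 0 over all genes. This small median did not hold its size or sign: it was -0.038 without WT female replicate 4, -0.0048 without WT male replicate 2, -0.070 in replicates 1-2 alone and 0.0054 in replicates 3-4 alone. The 5 genes whose interval crossed a bound were Ndufaf3, Ndufaf1, Cox6a2, Cox6b2 and Ndufb4c. Neuron and oligodendrocyte markers moved with genotype in the same libraries. At an FDR below 0.1, 3 of 10 oligodendrocyte and 11 of 20 neuron markers were higher in the knock-in, beside 6.95% of all genes. The neuron sum was 1087 ± 205 CPM in WT and 1502 ± 274 CPM in knock-in libraries (SD, n = 8 each). Of 10 astrocyte markers only Gfap was lower at that FDR, beside 7.82% of all genes. Its means were 37.85 CPM in WT and 27.57 CPM in knock-in libraries. The astrocyte markers did not share a direction between the sexes: 0 of 10 had a log2 fold change above 0 in females and 8 in males. Their part in the values of the respiratory chain genes was not tested.

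No subunit of any complex passed the FDR by genotype. Of the 38 complex I subunits, 12 had a log2 fold change above 0 and 26 below, with a median of -0.040 and a smallest FDR of 0.157. The 7 nuclear core subunits lay between -0.10 (Ndufv2, SE 0.073) and 0.05 (Ndufv1, SE 0.054). Of the accessory subunits, Ndufc2 had the smallest p: it was at 27.6, 30.5 and 35.4 CPM (lowest, median and highest) in WT and 24.1, 28.9 and 29.9 CPM in knock-in libraries. All 8 APP-NL-G-F values of Ndufc2 lay below the WT median, but the ranges overlapped, and the log2 fold change of -0.14 ± 0.058 (SE) had an FDR of 0.157 in edgeR (exact two-sided test, permuting genotype inside each sex in all 4900 ways, p = 0.0286). Ndufa3 had a log2 fold change of -0.15 ± 0.066 (FDR 0.173 in edgeR), also with all 8 APP-NL-G-F values below the WT median. Ndufb5, an accessory subunit of the membrane arm, pointed the other way: its lowest, median and highest levels were 21.6, 24.1 and 26.7 CPM in WT and 24.98, 26.9 and 27.9 CPM in knock-in libraries, a log2 fold change of 0.13 ± 0.056 (FDR 0.170 in edgeR). None of these 3 subunits passed the test with all libraries, though Ndufb5 had an FDR of 0.0908 without WT male replicate 1 and Ndufa3 of 0.0958 without WT female replicate 3.

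The 4 complex II subunits lay between -0.049 (Sdhc) and -0.0004 (Sdha). Sdha was at 159.5, 168.5 and 186.8 CPM in WT and 157.5, 171 and 177.1 CPM in knock-in libraries, so that the groups overlapped, and its SE of 0.041 was below the median SE of 0.069 over the 93 genes. In complex III, Uqcrc1 had a log2 fold change of 0.066 ± 0.047 (SE) and Uqcrfs1 of -0.097 ± 0.067, and the smallest FDR of the 8 genes was 0.388. Of the 14 complex IV genes 12 had a log2 fold change below 0. Cox7c, a small subunit, had the smallest p of them at -0.17 ± 0.083 (FDR 0.207 in edgeR), with levels of 14, 15.9 and 20.02 CPM in WT and 12.4, 14.8 and 16.6 CPM in knock-in libraries, but 56.2% of its windows are shared with other genes. The muscle isoform Cox6a2 had the highest log2 fold change of all 93 genes, 0.34 ± 0.21 (FDR 0.354 in edgeR), at levels of 0.685 to 1.68 CPM in WT and 1.01 to 2.01 CPM in knock-in libraries, which overlapped. In replicates 1-2 alone its log2 fold change was 0.67 and in replicates 3-4 alone -0.014. The 17 ATP synthase genes lay between -0.074 (Atp5mpl) and 0.084 (Atp5g1), with 0.42 as their smallest FDR. Atp5a1 was at 239, 275 and 297 CPM in WT and 259, 264 and 288 CPM in knock-in libraries.

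Assembly factors, which help to build the complexes and are not part of them, included the gene that passed the FDR. Of the 8 for complex I, 6 had a log2 fold change above 0. Ndufaf1 was at 3.07, 3.99 and 4.94 CPM in WT and 3.59, 4.77 and 6.12 CPM in knock-in libraries (log2 fold change 0.29 ± 0.14, SE, FDR 0.212 in edgeR), and Ndufaf5, which modifies the core subunit Ndufs7, had a log2 fold change of 0.19 ± 0.12 (FDR 0.374 in edgeR), with 0.49 in replicates 1-2 alone and -0.12 in replicates 3-4 alone. The 4 complex II factors Sdhaf1 to Sdhaf4 lay between -0.080 and 0.016.

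Ndufaf3 is a factor of early complex I assembly, encoded on the minus strand at chr9:108442729-108444642 (GRCm39) in 5 exons of its canonical transcript. In WT females it was at 9.38, 7.17, 7.996 and 8.72 CPM in replicates 1 to 4, and in APP-NL-G-F females at 5.35, 6.27, 5.08 and 5.46 CPM. The female groups did not overlap: every APP-NL-G-F value lay below every WT value. How many of all genes separate in this way within females was not counted, and Ndufaf3 is named because it passed the FDR. WT males were at 6.25, 5.96, 8.18 and 7.72 CPM and APP-NL-G-F males at 6.21, 6.29, 7.05 and 7.59 CPM, and these groups overlapped. Within females Ndufaf3 fell by 0.59 on the log2 scale (SE 0.137, FDR 0.0154 in edgeR) and was the only 1 of the 93 genes called there, against 7.15% of all genes. Within males the log2 fold change was -0.036 ± 0.14 (FDR 0.942 in edgeR), and 0 of the 93 genes were called, against 0.252% of all genes. An unadjusted p below 0.05 was found for 2 of the 93 in males (2.15% against 11.7% of all genes), and DESeq2 and limma voom also called 0. Over both sexes the log2 fold change was -0.32 ± 0.11 (FDR 0.0907 in edgeR), with all 8 APP-NL-G-F values below the WT median (exact permutation, two-sided p = 0.0171). This FDR lay near the threshold and was below 0.1 in 10 of 27 alternatives: it was 0.108 in limma voom and 0.112 with a replicate block, and passed without WT male replicate 1 or 2 or APP-NL-G-F male replicate 3 or 4 but failed when any of the other 12 libraries was left out (0.119 to 0.199). The difference between the sexes, an interaction of -0.55 ± 0.19, did not pass the test (FDR 0.605 in edgeR).

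**Figure D3:**
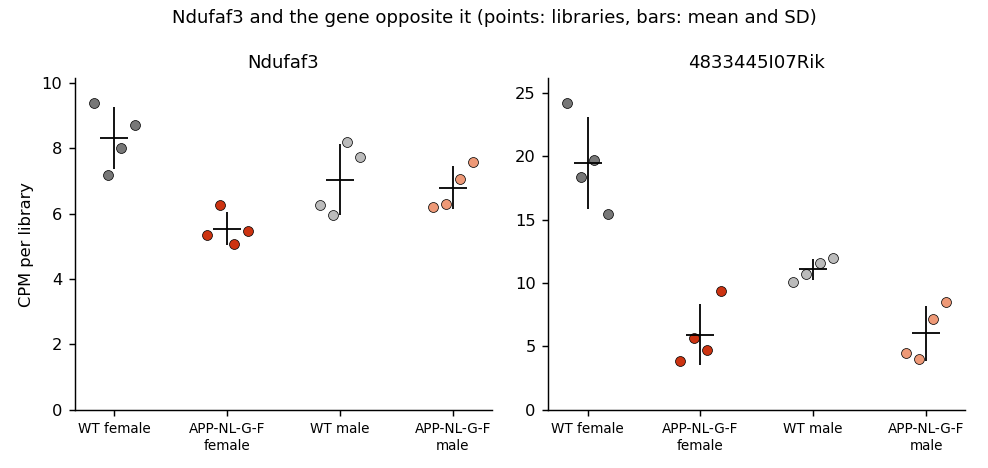
CPM of Ndufaf3 (left) and of the long non-coding gene 4833445I07Rik (right), which starts opposite it, in each of the 16 libraries by group, with the mean and SD of 4 libraries; both axes start at 0. For Ndufaf3 the 4 APP-NL-G-F female libraries lie at 5.08 to 6.27 CPM, below the 4 WT female libraries at 7.17 to 9.38.

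Ndufaf3 is crowded by its neighbours. Its first exon meets 4833445I07Rik, a long non-coding gene of a single exon on the plus strand at chr9:108444626-108446855, head to head, and they share 17 exonic bases. At its other end it shares 55 exonic bases with Impdh2, an enzyme gene of guanine nucleotide synthesis on the plus strand. The RNA kit keeps strand, but the sources used here do not state which strand of the counts was used, so reads over these shared bases cannot be told apart. 4833445I07Rik was at 24.2, 18.4, 19.7 and 15.5 CPM in WT females and at 3.88, 5.67, 4.74 and 9.36 CPM in APP-NL-G-F females, and at 10.1 to 11.99 CPM in WT males and 3.97 to 8.5 CPM in APP-NL-G-F males. The groups did not overlap in either sex, and the share of all genes that separate in this way within a sex was not counted. 4833445I07Rik fell by 1.31 over both sexes (SE 0.197, FDR 0.000627 in edgeR) and by 1.72 in females (FDR 0.000763), while its log2 fold change of -0.86 in males did not pass (FDR 0.170). It was the only called gene among those that overlap any of the 93, while 8.64% of all genes were called by genotype. Annotated genes overlap 57 of the 93 on the opposite strand and 8 on the same strand. Impdh2 was at 38.2 ± 1.1 CPM in WT females and 36.5 ± 1.97 CPM in APP-NL-G-F females (SD, n = 4), and Dalrd3, which follows 4833445I07Rik, at 14.4 ± 1.28 and 15.1 ± 2.48 CPM.

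Markers of other cell types moved with genotype in females as well, in both directions. At the called threshold 7 of 10 endothelial and 3 of 10 astrocyte markers were lower, and 3 of 20 neuron markers (Syt1, Meg3 and Gad1) were higher. Beside these, 7.15% of all genes were called in females in either direction. Of 8 pericyte and fibroblast markers only Rgs5 was called, as lower, which is not read as a change of these cells. The neuron sum was 872 to 1197 CPM in WT females and 1306 to 1705 CPM in APP-NL-G-F females, which did not overlap. The endothelial sum was 181, 228, 135 and 103 CPM in WT females and 101, 94.0, 112 and 90.2 CPM in APP-NL-G-F females in the order of the replicates, led by Pecam1. In males it was 69.1 to 82.9 CPM in WT and 88.2 to 123 CPM in knock-in libraries, where the Ndufaf3 values of the genotypes overlapped. The part of these cells in the values of Ndufaf3 was not tested. In both replicates 1-2 and replicates 3-4, the APP-NL-G-F female values of Ndufaf3 lay below the WT female values.

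The sequence before the start of Ndufaf3 is shown because it lies inside 4833445I07Rik and both genes differed between the female groups. It is the 250 bases before the start of the canonical Ndufaf3 transcript on the minus strand, chr9:108444637-108444886 (GRCm39), within the single exon of 4833445I07Rik:

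Ndufaf3: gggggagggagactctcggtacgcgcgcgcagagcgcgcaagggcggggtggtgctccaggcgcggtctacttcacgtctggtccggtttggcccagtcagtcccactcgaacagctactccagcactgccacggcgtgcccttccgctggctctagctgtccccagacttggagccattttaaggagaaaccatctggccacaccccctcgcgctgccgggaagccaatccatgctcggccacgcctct

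It holds none of the motifs searched, so it is printed without capitals. The motifs were the 8-letter core CGCATGCG of nuclear respiratory factor NRF1, its longer form with a G before and a C after the core, the ETS motif CCGGAAG bound by GABPA, and AAGATGGC of YY1, which are known regulators of respiratory chain genes. Each was searched on both strands from 250 bases before to 50 after the canonical start. The NRF1 core was in 8 of 90 promoters of the set (8.9%) against 2.6% of 21770 protein-coding promoters, its longer form in 6 (6.7% against 1.2%), the ETS motif in 17 (18.9% against 10.3%) and the YY1 motif in 6 (6.7% against 2.5%). At least 1 of the 3 was in 26 of the 90 promoters, 28.9% against 14.4%. The median GC content was 55.7% and 54.3%. These matches describe the letters and do not show that a factor binds there.

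The genes were also summed by complex. The complex I subunits summed to 1001 ± 51.8 CPM in WT and 979 ± 36.1 CPM in knock-in libraries (SD, n = 8 each). The sums were 279.9 ± 12.5 and 278 ± 10.4 CPM for complex II, 337 ± 18.4 and 334 ± 18.3 CPM for complex III, 624 ± 43.6 and 611 ± 32 CPM for complex IV, and 1100.0 ± 66.6 and 1081 ± 55.3 CPM for the ATP synthase. In each complex the APP-NL-G-F mean lay within 1 SD of the WT mean. The direction rests on the scaling: the log2 ratio of the genotype means over all 93 genes was -0.025 with TMM-scaled CPM and 0.021 as a share of the counts left after ribosomal RNA and mitochondrial genes, and both are smaller than the SD of 0.077 between libraries of a group. The 8 mitochondrially encoded mRNAs summed to 16236 ± 2696 CPM in WT and 15215 ± 1376 CPM in knock-in libraries, and the nuclear sum was 16.5% to 24.5% of the mitochondrial sum in single libraries, lowest in WT female replicate 1.

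**Figure D4:**
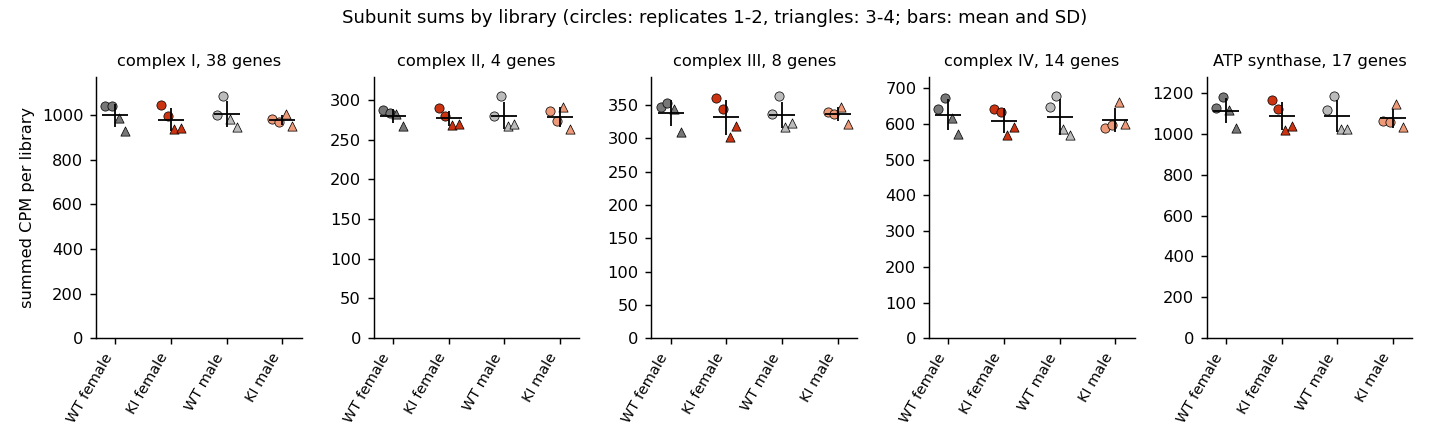
Summed CPM of the subunits of each complex in each of the 16 libraries, in 5 panels by complex and by group (KI, APP-NL-G-F), with circles for replicates 1-2, triangles for replicates 3-4, and the mean and SD of 4 libraries; the axes start at 0. The genotypes overlap in every panel, and the sum over all 93 genes is 3516 ± 131 CPM in replicates 1-2 and 3302 ± 127 CPM in replicates 3-4 (mean, SD).

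Sex made no difference that passed the test. In the test of females against males 0 of the 93 genes were called, against 0.0604% of all genes, 1 had an unadjusted p below 0.05 in edgeR, and DESeq2 and limma voom called 0. That gene was Ndufab1, the acyl carrier protein, at 23.3 ± 1.8 CPM in females and 21.1 ± 1.8 CPM in males (SD, n = 8 each). The X-linked genes Ndufa1, Ndufb11 and Cox7b had female over male log2 fold changes of 0.089 ± 0.081, 0.0039 ± 0.048 and 0.0032 ± 0.055 (SE), and their intervals lay within -0.5 and 0.5. In the interaction of genotype and sex 0 of the 93 genes were called, against 0.0274% of all genes. Its only unadjusted p below 0.05 was that of Ndufaf3, and DESeq2 and limma voom called 0 as well.

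Most of the respiratory chain genes had lower levels in replicates 3-4 than in replicates 1-2, and 6 passed the FDR. The replicate numbers come from the sample titles, each group has 2 of each, and in the labels replicates 1-2 carry library numbers 1 to 8 and replicates 3-4 carry 9 to 16. The labels name no batch. In an edgeR fit with sex and genotype as covariates, 79 of the 93 genes had a log2 fold change below 0 in replicates 3-4 (median -0.084, against 0.0086 over all genes). The other 14 were above 0, which is 15.1% against 52.2% of all genes. At an FDR below 0.1 they were lower in 6 cases, against 1.88% of all genes, and higher in 0, against 1.95% of all genes. None was called with the fold change threshold added, against 0.73% of all genes, and DESeq2 and limma voom called 0. An unadjusted p below 0.05 was found for 28 of the 93, which is 30.1% against 15.5%. For 0 of the 93 genes did the ranges of replicates 1-2 and 3-4 separate, against 0.291% of all genes.

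The 6 genes, named because they passed the FDR here, come from 3 complexes. Uqcrb of complex III was at 48.7, 55.4 and 62.3 CPM (lowest, median and highest of 8 libraries) in replicates 1-2 and at 35.7, 46.8 and 51.6 CPM in replicates 3-4. It fell by 0.29 (SE 0.059, FDR 0.0270 in edgeR), but 27.7% of its windows are shared with other genes. Ndufa5, an accessory subunit of complex I, was at 20.3, 22.7 and 25.99 CPM and then at 15.3, 18.3 and 21.8 CPM, and fell by 0.32 (SE 0.077, FDR 0.0477). Ndufb1, another accessory subunit, was at 18.7, 22.8 and 25.8 CPM and at 15.2, 18.3 and 21.0 CPM, and fell by 0.32 (SE 0.079, FDR 0.0496). In these 3 genes all 8 libraries of replicates 3-4 lay below the median of replicates 1-2, though the ranges overlapped. Atp5pb, a stator subunit of the ATP synthase, had a log2 fold change of -0.16 (SE 0.044, FDR 0.0834 in edgeR), Ndufa13 of -0.17 (SE 0.047, FDR 0.0843) and Atp5mpl, a small ATP synthase subunit, of -0.21 (SE 0.059, FDR 0.0877). The count of 6 rests on single libraries, and the share of all genes that were lower, 1.88% with all libraries, changed too. Leaving out APP-NL-G-F female replicate 4 gave 2 genes of the set, beside 0.98% of all genes. Dropping any 1 of 6 other libraries gave 3, beside 0.917% to 1.38%. Among the knock-in males, dropping replicate 2 gave 10 (2.51% of all genes) and dropping replicate 3 gave 15 (4.44%). Of the 6 genes, Uqcrb and Ndufa5 passed the FDR in all 21 alternatives tried and Ndufb1 in 20.

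**Figure D5:**
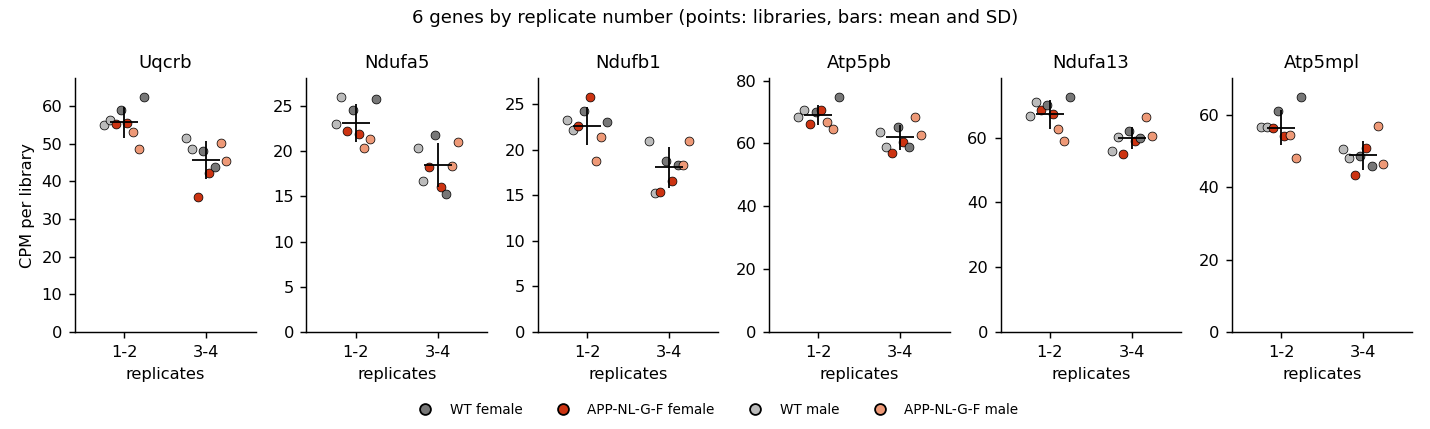
CPM of the 6 genes that were lower in replicates 3-4 at an FDR below 0.1, in each of the 16 libraries, with replicates 1-2 on the left and 3-4 on the right of each panel, coloured by group, with the mean and SD of 8 libraries; the axes start at 0. Uqcrb goes from 55.6 ± 4.01 to 45.7 ± 5.13 CPM (mean, SD).

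Other transcripts moved with the replicate numbers, so the shift was not particular to the 93 genes. The median log2 fold change was -0.070 over 77 mitochondrial ribosomal protein genes, with 25 above 0. It was -0.066 over 17 citric acid cycle genes, with 5 above 0, and -0.061 over the 15 microglia markers, with 2 above 0. Over 23 glycolysis genes and 19 regulators of mitochondrial biogenesis the medians were -0.004 and 0.0076. Of the 8 mitochondrially encoded mRNAs, 6 were lower in replicates 3-4 at an FDR below 0.1 and 0 higher, and their sum was 17067 ± 2120 CPM in replicates 1-2 and 14385 ± 1074 CPM in 3-4 (SD, n = 8 each). The microglia marker sum was 28075 ± 1159 and 26665 ± 1491 CPM, with 0 of 15 markers past the FDR, and the oligodendrocyte marker Ermn was lower (log2 fold change -0.74 ± 0.21, SE, FDR 0.0862 in edgeR). Their part in the difference was not tested. The comparison of the genotypes was made within each set too. In replicates 1-2 alone, where 2 libraries stand for each group, the median log2 fold change of the 93 genes was -0.070, with 5 lower (5.38% against 9.58% of all genes) and 1 higher (10.6% of all genes) at an FDR below 0.1. In replicates 3-4 alone it was 0.0054, with 0 past the FDR (0.39% of all genes lower and 0.126% higher) and 3 at an unadjusted p below 0.05. The difference between the replicate sets, an interaction of genotype with replicate set added after seeing the data, passed an FDR of 0.1 for 0 of the 93 genes and had an unadjusted p below 0.05 for 4 (4.3% against 8.02% of all genes).

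The upstream sequences of Ndufa13 and Uqcrb are shown as examples with and without a motif among the 6 genes. Both are the 250 bases before the canonical start on the minus strand of GRCm39, Ndufa13 at chr8:70355873-70356122 and Uqcrb at chr13:67053443-67053692. The capitals in Ndufa13 mark the NRF1 core at position -117 from the start:

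Ndufa13: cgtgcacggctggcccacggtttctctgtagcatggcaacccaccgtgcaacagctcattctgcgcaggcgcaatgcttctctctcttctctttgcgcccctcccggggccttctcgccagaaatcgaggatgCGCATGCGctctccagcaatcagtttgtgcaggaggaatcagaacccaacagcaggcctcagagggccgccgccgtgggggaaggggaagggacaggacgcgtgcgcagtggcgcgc

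Uqcrb: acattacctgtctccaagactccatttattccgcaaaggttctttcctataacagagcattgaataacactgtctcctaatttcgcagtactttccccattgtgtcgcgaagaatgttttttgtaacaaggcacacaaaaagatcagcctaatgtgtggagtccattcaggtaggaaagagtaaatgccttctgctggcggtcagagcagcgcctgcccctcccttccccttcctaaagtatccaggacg

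The genes around the respiratory chain were described from lists chosen with earlier results known. Among 19 regulators of mitochondrial biogenesis, Ppargc1a, the coactivator that drives respiratory chain transcription in many tissues, rose by 0.59 in APP-NL-G-F (SE 0.128, FDR 0.0075 in edgeR). It was at 9.07, 11.2 and 16.1 CPM in WT and at 12.9, 18.5 and 23.0 CPM in knock-in libraries, and 5 of the 8 APP-NL-G-F values lay above the highest WT value. Neurons express Ppargc1a too, the neuron marker sum was also higher in knock-in libraries, and its part in the Ppargc1a values was not tested. Pprc1, a related coactivator, fell by 0.19 (FDR 0.0807), and the other 17 did not pass the FDR, among them Nrf1 (-0.049 ± 0.050, SE), Gabpa (-0.059 ± 0.044), Yy1 (-0.079 ± 0.039) and Tfam (-0.036 ± 0.078), the factor that packs mitochondrial DNA. The median log2 fold change of the 19 was -0.049.

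Of 42 tested assembly factors outside the name rule, Ttc19, a complex III factor, was higher in APP-NL-G-F at 0.33 ± 0.11 (SE, FDR 0.0698 in edgeR) and 0 were lower (median 0.031). Of 9 further genes of electron transfer and the inner membrane, including the cytochrome c1 gene Cyc1 and the cytochrome c gene Cycs, 0 passed the FDR (median -0.031). Of 77 mitochondrial ribosomal proteins, which serve to translate the mitochondrially encoded subunits, Mrps35 was higher at 0.21 ± 0.068 (FDR 0.0585) and Mrpl41 lower at -0.31 ± 0.096 (FDR 0.0514). In the citric acid cycle, which supplies the electrons, Dlst of the oxoglutarate dehydrogenase complex (-0.19 ± 0.046, FDR 0.0134) and Suclg2, a subunit of succinyl-CoA ligase (-0.20 ± 0.064, FDR 0.0597), were lower and 0 of 17 were higher. Of the 23 glycolysis and lactate transport genes, 4 were higher and 4 lower at an FDR below 0.1, beside 6.95% of all genes higher and 7.82% lower by genotype. The higher ones were the platelet-type phosphofructokinase Pfkp (0.59 ± 0.20, the only 1 called), the glucose transporter Slc2a3 (0.28 ± 0.087), the neuronal enolase Eno2 (0.28 ± 0.091) and hexokinase Hk1 (0.12 ± 0.041). The lower ones were the liver-type phosphofructokinase Pfkl (-0.23 ± 0.064), hexokinase Hk2 (-0.14 ± 0.044) and the lactate transporters Slc16a3 (-0.24 ± 0.083) and Slc16a1 (-0.20 ± 0.072). Eno2 is also among the neuron markers, and the part of neurons in these values was not tested.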

How the data were processed

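Total RNA of CD11b-selected olfactory bulb cells was made into libraries with the Takara SMART-Seq Stranded kit and sequenced in paired ends. The authors aligned the reads with STAR 2.7.8, using GRCm39 and gencode vM32 to which the human App sequence had been added, and deposited raw counts per gene without normalization. Which strand of the counts was used is not given in the sources used here.

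Counts were analysed in R 4.3.3 with edgeR 4.0.16 (limma 3.58.1 and DESeq2 1.42.0 as alternatives). Genes that reached 5 counts in 8 or more libraries were kept, scaled by TMM and tested with glmQLFit and glmQLFTest, with sex as a covariate; contrasts within a sex and the interaction used a model with 1 term for each of the 4 groups. Calls required a Benjamini-Hochberg FDR below 0.1 over all 18227 genes and an absolute log2 fold change above 0.5. For log2 CPM a prior count of 2 was added, and exact tests permute genotype within sex. The depth of 9052932 to 18117286 counts limits the precision of genes with few counts, and a count of 0 allows 3 counts; these floors cover counting error only. The procedure was tested on simulated data, and the outcome of that test is not given here.

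Named genes are those past the FDR by genotype, the 5 higher and 5 lower of smallest p, the extreme levels of each complex, core subunits, isoform pairs and genes called in another contrast; the 6 genes between replicates, Ndufb8, Ndufb4c, Ndufab1 and the neighbours of Ndufaf3 were added after their values were seen. The members and lists were chosen with earlier results of these data known. Lengths, positions and promoters came from gencode vM39 on GRCm39, which matched 91 of 93 genes; the canonical transcript was used because the union of exons was a median of 2.61 times longer. Alternatives were RLE factors, other filters, DESeq2, limma voom, a replicate block, a term for replicates 3-4, each replicate set alone, no sex term, no ribosomal RNA or mitochondrial genes, other FDR and length choices and leaving out each library. Same-numbered libraries of different groups deviated together only weakly, with a median correlation of 0.034 against -0.030 for different numbers. Of 24 same-numbered pairs 8 had a correlation above 0.1 (range -0.33 to 0.29), so the numbers were not taken as pairs. Some genes are not reported here.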

Additional observations from a re-analysis of the deposited data

Results flagged for a closer look

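The 9 sums (by complex, over all genes and over the mitochondrial mRNAs) and 16 named genes were checked for a library far from the other 3 of its group, in 100 groups of 4 in all, where chance would mark about 1 in 20. A gap to the nearest library above 0.829 of the group's range was found in 3. The sum of the complex I assembly factors in WT female replicate 1 was 71.9 CPM, with a gap of 0.875 of the range. The sum of the complex IV subunits in APP-NL-G-F male replicate 3 was 662 CPM, with a gap of 0.857 of the range. Ndufa9, an accessory subunit of complex I, was at 39.8 CPM in the same library, with a gap of 0.901 of the range. With that library left out, 15 genes of the set instead of 6 were lower in replicates 3-4 at an FDR below 0.1 (16.1% instead of 6.45%), while the share of all genes rose from 1.88% to 4.44%.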

How the results depend on the processing

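The absence of calls by genotype, within males, by sex and in the interaction was the same under every alternative run, apart from a count of 1 by genotype (Ndufaf3) at an FDR below 0.1 with no fold threshold. Without that threshold, other genes also passed by genotype: Ndufb5 without WT male replicate 1, Ndufa3 without WT female replicate 3, and Atp5mpl, Cox5b, Cox6a1, Cox6c, Ndufa5 and Ndufaf5 in replicates 1-2 alone. Ndufaf3 was called within females in all 22 alternatives (FDR 0.0056 to 0.0859 in edgeR, DESeq2 or limma). Over both sexes Ndufaf3 was under an FDR of 0.1 in 10 of 27 alternatives (0.0531 to 0.487). The median genotype log2 fold change was between -0.038 and -0.0048 with a library left out. In the comparison of replicates 3-4 with 1-2, the count of called genes went from 0 to 1 with no low-count filter, and was 0 to 1 with a library left out; the gene was Ndufb4c (without WT female replicate 1, or without replicate 2 or 3 of the APP-NL-G-F males). The count of lower genes at the FDR was 6 (1.88% of all genes) and rose to 12 in DESeq2 (3.7% of all genes). With a library left out it was 2 to 15, and the share of all genes moved with it. The count was 3 without WT male replicate 2 or 4, WT female replicate 2 or 4, or APP-NL-G-F female replicate 2 or 3 (0.917% to 1.38%). It was 2 without APP-NL-G-F female replicate 4 (0.98%), 10 without APP-NL-G-F male replicate 2 (2.51%) and 15 without APP-NL-G-F male replicate 3 (4.44%). Uqcrb and Ndufa5 passed in all 21 alternatives and Ndufb1 in 20, the other 3 in 8 to 12. A replicate block left 0 genes called by genotype, in males, by sex and in the interaction, and 1 in females, with a median genotype log2 fold change of -0.024; Ndufaf3 over both sexes then had an FDR of 0.112 in edgeR. In replicates 3-4 alone, Cox6a2 and Ndufaf5 reversed to -0.014 and -0.12. Levels per kilobase depended on the length: Cox6c was 194 CPM per kilobase by the canonical, 26.5 by the longest transcript and 10.4 by the union of exons, and the highest complex IV gene was then Cox4i1 or Cox8a. The causes were not tested.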
